A study of Mus musculus with 4 samples.

Results

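The Wnt pathway genes described here are 48 mouse genes, made up of 19 Wnt ligands, 12 receptors (10 Frizzled genes, Lrp5 and Lrp6), 11 secreted antagonists and 6 genes that act or respond inside the cell (Axin2, Lef1, Tcf7, Tcf7l1, Tcf7l2 and Ctnnb1, called effectors below). They were chosen by name and pathway, with earlier results of these data known. C3H10T1/2, a mouse line that behaves as mesenchymal stem cells (MSCs), was profiled by reduced representation bisulfite sequencing, which reads a cytosine as methylated when bisulfite leaves it unconverted. The 4 libraries came from cells given non-targeting siRNA (NC) or DNMT1 siRNA (siDNMT1) for 48 h, each either left uninduced or kept for 3 days in osteoblast (OB) induction medium with ascorbic acid, β-glycerophosphate and dexamethasone. By the labels induction followed transfection, so the OB libraries can also differ from the uninduced ones in time in culture. Induction and time cannot be told apart here. DNMT1 copies CpG methylation onto newly made DNA strands, and the comparisons ask how its depletion and OB induction bear on methylation. Each condition was 1 library, so no value below has a replicate check, an SD or a p-value, and differences compare libraries rather than conditions. Methylation does not show how far DNMT1 itself was depleted, and the labelled cell type could not be checked against expressed markers.

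The methylation level is the fraction of methylated CpG, from 0 to 1, and the deposited values give 1 level per gene for each of 5 region classes (promoter, 5′ UTR, exons, introns and 3′ UTR). A promoter is the 2 kb before a transcription start. The read depth behind a level is unknown, and the number of regions listed was lowest in the siDNMT1 OB library (155398, against up to 159705). Of the 48 genes, 47 had a level in some class, and Dkk4 was not listed. They had 188 levels in any library and 183 in all 4, out of 76155 in all 4 over every gene. Promoter levels in all 4 libraries were available for 41 of the 48 genes. Besides Dkk4, the promoters of Wnt8a, Wnt8b, Wnt16, Dkk1 and Sost were not listed, and that of Wnt7a was listed only in the siDNMT1 uninduced library, at 0.0333. Levels of a gene are not independent of each other, since classes can hold the same cytosines: the 5′ UTR and exon levels of Dkk2 and of Sfrp5 were identical in all 4 libraries.

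Wnt proteins are secreted lipid-modified ligands that bind a Frizzled receptor together with Lrp5 or Lrp6. In the canonical branch this spares β-catenin (encoded by Ctnnb1) from destruction, and β-catenin then works with Lef1 and Tcf proteins to switch on targets such as Axin2. Sfrp proteins, Frzb and Wif1 bind Wnt ligands outside the cell, while Dkk1 and Sost bind Lrp5 and Lrp6. The pathway is a main driver of osteoblast formation, and promoter methylation of several of its antagonists is well known from tumours.

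The promoter stretches of 4 genes show where CG lies in the reference sequence, and which of these the assay covered is not known. Wnt9a and Wnt2 are shown because they had the lowest and the highest promoter level among the ligands, Wnt3a because the study names its promoter, and Wif1 because it was lowest among the antagonists. Capitals mark CG, the letters whose cytosine bisulfite sequencing reads. Each stretch runs 5′ to 3′ on the strand of the gene and ends before the start of the gene in both RefSeq and GENCODE, and the sequences are those of RefSeq on GRCm38.p6. They lie at chr11:59306680-59306927 (plus strand, Wnt9a), chr6:18030586-18030695 (minus strand, Wnt2), chr11:59290753-59291001 (minus strand, Wnt3a) and chr10:121033754-121033959 (plus strand, Wif1).
Wnt9a: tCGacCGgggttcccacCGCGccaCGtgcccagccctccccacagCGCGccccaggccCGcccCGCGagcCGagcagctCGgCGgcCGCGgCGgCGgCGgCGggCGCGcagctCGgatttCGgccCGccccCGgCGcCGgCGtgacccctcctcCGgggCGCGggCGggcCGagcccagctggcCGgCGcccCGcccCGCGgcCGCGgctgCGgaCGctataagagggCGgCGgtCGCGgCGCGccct
Wnt2: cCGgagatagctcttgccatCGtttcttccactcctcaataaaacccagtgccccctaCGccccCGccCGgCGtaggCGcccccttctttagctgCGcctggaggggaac
Wnt3a: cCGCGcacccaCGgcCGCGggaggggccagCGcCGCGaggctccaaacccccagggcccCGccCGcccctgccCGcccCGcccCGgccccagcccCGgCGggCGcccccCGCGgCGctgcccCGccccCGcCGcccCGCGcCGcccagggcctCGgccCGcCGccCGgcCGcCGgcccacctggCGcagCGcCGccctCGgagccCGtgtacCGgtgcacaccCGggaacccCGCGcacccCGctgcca
Wif1: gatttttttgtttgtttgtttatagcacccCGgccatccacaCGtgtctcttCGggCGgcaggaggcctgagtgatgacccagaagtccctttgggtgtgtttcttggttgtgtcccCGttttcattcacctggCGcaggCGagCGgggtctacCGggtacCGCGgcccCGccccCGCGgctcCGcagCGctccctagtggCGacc
The Wnt9a stretch holds 48 CG in 248 bases, that of Wnt3a 41 in 249, that of Wif1 17 in 206 and that of Wnt2 8 in 110. Over the full 250 bases before the RefSeq start the count was 48, 41, 21 and 20 in the order Wnt9a, Wnt3a, Wif1 and Wnt2. Of 32851 promoters in the RefSeq table, 17.9% held at least 20 CG in those 250 bases, with a median of 6, and Wif1 and Wnt2 held nearly the same number although their promoter levels differed. For Wif1 and Wnt2 part of those 250 bases lies past the GENCODE start. The promoter entry covers the 2 kb and not these bases alone. Of the 48 genes, 34 had an entry in that table.

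Promoter methylation ranged widely among the genes, with low medians for receptors and high ones for antagonists. In the NC uninduced library the median level was 0.253 over 15 ligands, 0.0425 over 12 receptors, 0.425 over 8 antagonists and 0.201 over 6 effectors. The median over all 41 was 0.205, beside 0.191 over all 20152 promoters. Of the promoters, 11 of 41 (26.8%) had a mean level over the 4 libraries under 0.1, against 42.0% of all promoters, and 8 of 41 (19.5%) had at least 0.5, against 25.0%. At UTRs the genes lay further from the rest. The median 5′ UTR level of the 41 genes with one was 0.147 in the NC uninduced library, against 0.0286 over all 5′ UTRs, whereas the 3′ UTR median was 0.388 over 19 genes, against 0.675 over all. Exon and intron medians were 0.369 and 0.435, against 0.361 and 0.424 over all.

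**Figure D1:**
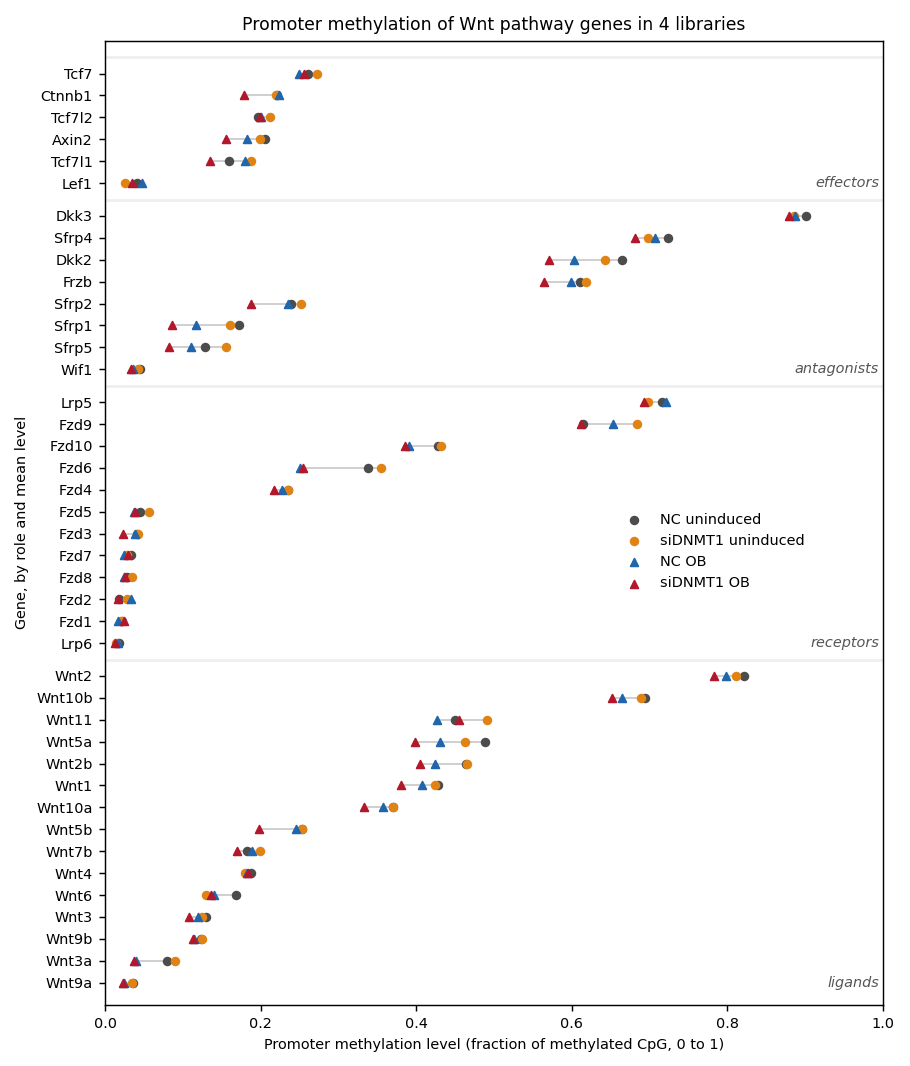
Promoter methylation level (horizontal axis, fraction from 0 to 1) of 41 Wnt pathway genes, grouped by role and ordered by mean level. Each point is 1 library, and the grey line spans the 4 libraries; for every gene the spread between libraries is small beside the range between genes, from 0.0150 for Lrp6 to 0.888 for Dkk3 as means.

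Among the ligands, Wnt9a had the lowest promoter level, at 0.0355 in NC uninduced, 0.0337 in siDNMT1 uninduced, 0.0246 in NC OB and 0.0221 in siDNMT1 OB cells. Wnt2 had the highest, at 0.821, 0.811, 0.798 and 0.783 in the same order of libraries, which is kept below. The Wnt2 promoter was methylated at over 0.78 in every library, and that of Wnt9a stayed under 0.04. Wnt5a, a mostly non-canonical ligand named after its values were seen, had a promoter level of 0.488, 0.462, 0.430 and 0.398 but a 5′ UTR level of 0.0322, 0.0277, 0.0331 and 0.0183. The stretch at chr14:28502710-28504709, which covers most of the 2 kb before the gene start, was at 0.204, 0.181, 0.185 and 0.166. The promoter level, whose transcription start is not given, may thus average other bases than those next to that 5′ UTR. Wnt10b, a canonical ligand known to promote bone formation, was at 0.694, 0.689, 0.665 and 0.651.

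Frizzled promoters were mostly unmethylated, and 7 of the 12 receptor promoters had a mean level under 0.1 (Fzd1, Fzd2, Fzd3, Fzd5, Fzd7, Fzd8 and Lrp6). The 2 coreceptors lay at opposite ends. Lrp6 was at 0.0180, 0.0136, 0.0157 and 0.0128, the lowest mean of all 41. Lrp5, which is required for normal bone mass, was at 0.717, 0.697, 0.721 and 0.693 over its promoter. The CpG island across the Lrp5 start, a CG-dense stretch at chr19:3685806-3686698, was at 0.0297, 0.0281, 0.0284 and 0.0315. The shore before that island (chr19:3686699-3688699), which covers most of the promoter, was at 0.745, 0.744, 0.747 and 0.737.

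Antagonists split into a low and a high set. Dkk3 was the most methylated promoter of all 41, at 0.901, 0.886, 0.888 and 0.879. Sfrp4, Dkk2 and Frzb also had means of at least 0.5, while Sfrp2, Sfrp1 and Sfrp5 lay between 0.0824 and 0.251 in every library. Sfrp4, Frzb, Sfrp1 and Sfrp5 are named after their values were seen. Wif1 was at 0.0449, 0.0418, 0.0350 and 0.0328. Among the effectors Lef1 was lowest, at 0.0413, 0.0248, 0.0465 and 0.0343, and Tcf7 highest, at 0.261, 0.272, 0.250 and 0.255. No effector promoter had a mean of 0.5 or more.

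Several Wnt genes lie in neighbouring pairs, and their promoters were alike in some pairs and unlike in others. Wnt3 and Wnt9b, whose starts are 24.3 kb apart on chromosome 11, had mean levels of 0.120 and 0.119. Wnt3a and Wnt9a, 16.2 kb apart on the same chromosome, had 0.0612 and 0.0290. By contrast Wnt1 and Wnt10b, 11.7 kb apart on chromosome 15, had 0.410 and 0.674, and Wnt6 and Wnt10a, 19.6 kb apart on chromosome 1, had 0.143 and 0.357.

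Promoters with more CpG were less methylated. Over the 41 genes the mean level and the ratio of observed to expected CpG in the 2 kb had a Spearman correlation of -0.50 (Pearson -0.45), and over 20128 promoters -0.41 (Pearson -0.36). This is a correlation across genes, which share libraries and base composition, and is given without a test. CpG was counted before the GENCODE gene start, and a promoter level may average other bases, since its transcription start is not given. Wnt10a has 13 CpG in the 2 kb and promoter levels of 0.370, 0.370, 0.357 and 0.333. These are close to those of an island inside the gene (0.374, 0.372, 0.356 and 0.334). The 12 genes with under 50 CpG in the 2 kb had a median mean level of 0.401 and the 27 with 50 to 99 had 0.165, beside 0.301 and 0.0502 over all promoters of those classes. The genes had a median of 58 CpG, against 38 over all. Wnt2, with 65 CpG, had a mean level of 0.803, and Lrp6, with 82, had 0.0150.

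**Figure D2:**
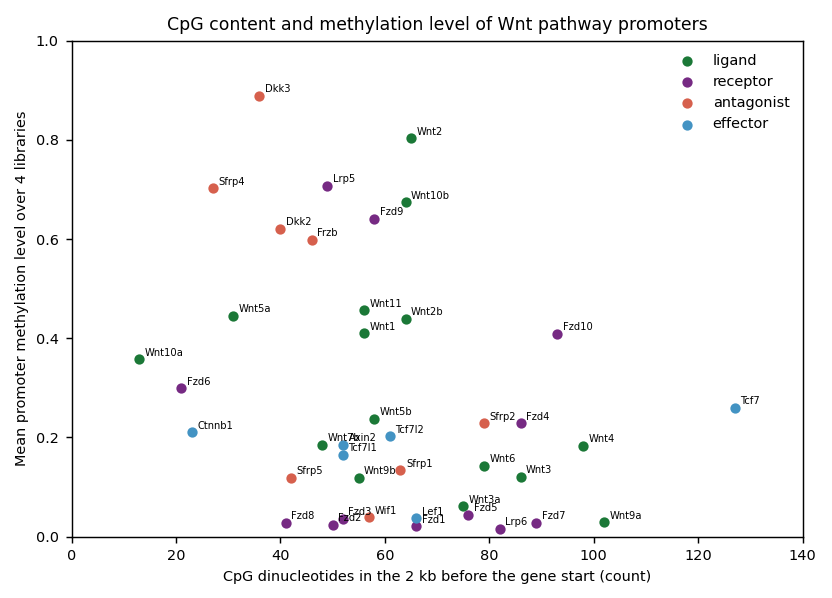
Number of CpG in the 2 kb before the gene start (horizontal axis) and mean promoter methylation level over the 4 libraries (vertical axis, 0 to 1) of 41 Wnt pathway genes, colored by role. Levels fall with CpG content (Spearman -0.50 with observed over expected CpG), while Wnt2 and Wnt10b stay above 0.6 with over 60 CpG.

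In uninduced cells hardly any level of these genes moved far with DNMT1 siRNA. A region was counted as fallen or risen when its level differed by at least 0.1. Of 183 levels 1 fell and 0 rose, where 0.852% of all 76155 fell and 0.692% rose. The 1 was the exons of Wnt16, a ligand linked to cortical bone strength, at 0.760, 0.647, 0.520 and 0.810. No promoter changed by 0.1, where 0.814% of all promoters fell and 0.670% rose. After centring the 3′ UTR of Ctnnb1 also passed 0.1, with a rise of 0.101. The largest promoter fall was that of Wnt6, from 0.168 to 0.129, and the largest rise that of Fzd9, from 0.614 to 0.684. The median promoter difference, siDNMT1 minus NC, was -0.000378 over the 41 genes, with 22 lower where 53.2% of all promoters were, and it was above 0 when each library was centred on its median (0.00291) or as a mean (0.00149).

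In OB cells, 1 of 183 levels fell and 1 rose with siDNMT1, where 1.44% of all fell and 0.725% rose. The 3′ UTR of Lrp6 was listed at 0.240, 0.240, 0.250 and 0, and the 0 in the siDNMT1 OB library gave the fall. The exons of Wnt16 rose, from 0.520 in NC OB to 0.810 in siDNMT1 OB, the opposite direction to that in uninduced cells. No promoter changed by 0.1, where 1.41% of all promoters fell and 0.794% rose. Small shifts were mostly downward: 33 of 41 promoters were lower with siDNMT1, where 64.0% of all were, and 24 of 41 were lower once each library was centred on its median, where 37.7% were. The median difference was -0.0136, against -0.00371 over all promoters, both as deposited. After centring, which takes -0.0100 from every promoter, the median over the 41 was -0.00352. With the median difference of all promoters subtracted instead, an alternative chosen after seeing the data, it was -0.00985. The shift over all promoters depended on their level: its median was -0.000155 for those under 0.1, -0.00852 from 0.1 to 0.3, -0.0131 from 0.3 to 0.5 and -0.0204 from 0.5, where 81.2% were lower. The genes in these classes had medians of -0.00222, -0.0158, -0.0220 and -0.0271. Over the 8 antagonists, 4 of them at 0.5 or more, the median was -0.0292, and all 8 were lower as deposited and 6 after centring. The largest fall was that of the antagonist Sfrp2, from 0.235 to 0.188, and the largest rise that of the non-canonical ligand Wnt11, from 0.427 to 0.455.

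The siDNMT1 comparisons in uninduced and in OB cells share no library, so they can be set side by side. Of 41 promoters 19 (46.3%) were lower with siDNMT1 in both, beside 36.6% of all promoters, and 11 after centring, beside 20.9%, while 5 were higher in both, beside 19.2%. Of the 183 levels, 86 (47.0%) were lower in both, beside 39.8% of all, and 22 higher, beside 16.9%. After centring 53 were lower in both, beside 24.0% of all. No promoter was lower or higher by at least 0.05 in both, where 0.873% and 0.442% of all were. Of the 183 levels 0 were higher by that much, where 0.407% of all were, and 1 was lower, where 0.961% were: the exons of Fzd3, at 0.369, 0.306, 0.341 and 0.266. Fzd3 was named after its values were seen. Both siDNMT1 libraries were below both NC libraries there.

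**Figure D3:**
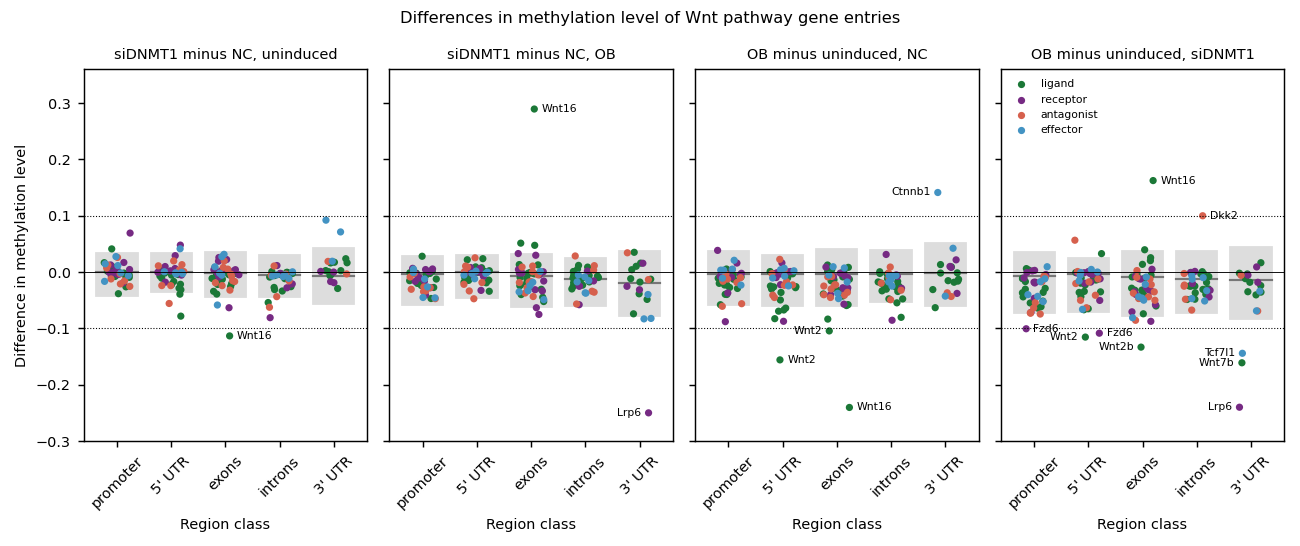
Difference in methylation level (vertical axis) of 183 levels of Wnt pathway genes in 4 comparisons, by region class and colored by role. Grey boxes span the 5th to the 95th percentile of every gene with that class and the bar is its median, dotted lines mark 0.1 in either direction, and genes past them are named; none of the promoters passes them with siDNMT1, and Fzd6 does with OB induction of siDNMT1 cells as deposited (-0.101) but not after centring (-0.0768).

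The study names Wnt3a, a canonical ligand, for its promoter methylation. Averaged over the promoter, its level was 0.0789 in NC uninduced, 0.0890 in siDNMT1 uninduced, 0.0395 in NC OB and 0.0375 in siDNMT1 OB cells. The 2 uninduced libraries were above the 2 OB libraries, and the siRNA difference was 0.0101 before and -0.00197 after induction. The island across the Wnt3a start (chr11:59288914-59291135) had 0.145, 0.144, 0.126 and 0.114. Single sites within the promoter could not be read from levels that average whole regions.

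With OB induction, most changes past 0.1 were falls. In NC cells 3 of 183 levels fell by at least 0.1 and 1 rose, where 1.33% of all fell and 0.815% rose, and 2 fell after centring. In siDNMT1 cells 7 fell and 2 rose, where 2.42% and 0.980% did. No promoter passed 0.1 in NC cells, where 1.41% of all promoters fell and 0.764% rose, and 1 of 41 fell in siDNMT1 cells, where 2.34% fell and 1.04% rose. That 1 was Fzd6, whose difference was -0.101 as deposited and -0.0768 once each library was centred on its median. Over both OB comparisons, Wnt2 and Fzd6 had 2 regions each past 0.1, and the regions of a gene can share cytosines.

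Wnt2 is a canonical ligand at chr6:17988940-18030585 on the minus strand. Its 5′ UTR was at 0.640 in NC uninduced, 0.623 in siDNMT1 uninduced, 0.484 in NC OB and 0.508 in siDNMT1 OB cells, a difference with OB of -0.156 in NC and -0.115 in siDNMT1 cells. Its exons were at 0.716, 0.694, 0.611 and 0.620, a difference of -0.105 in NC cells that was -0.0911 after centring and so no longer past 0.1. In both classes the OB libraries lay below the uninduced ones. The island across the start (chr6:18030272-18030637), which reaches into the end of the Wnt2 stretch printed above, was at 0.613, 0.609, 0.476 and 0.492. The shore of that island inside the gene (chr6:18028271-18030270) was at 0.670, 0.599, 0.411 and 0.545, and there the siDNMT1 OB library was 0.134 above NC OB. The shore before the start (chr6:18030638-18032638), in contrast, was at 0.867, 0.857, 0.877 and 0.856. The lower levels with OB thus lay at and downstream of the start, while the promoter level fell by at most 0.0290 with OB. The 5′ UTR, exon and island levels of Wnt2 overlap and do not count as separate observations.

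Fzd6, a receptor that acts mainly in planar polarity signalling, showed the same split between uninduced and OB libraries. Its promoter was at 0.338, 0.355, 0.250 and 0.254, the largest promoter fall with OB in both NC (-0.0881) and siDNMT1 cells (-0.101), and -0.0710 and -0.0768 after centring, when neither passed 0.1. Its 5′ UTR was at 0.340, 0.369, 0.252 and 0.260, and the island just inside the gene (chr15:39006077-39006698) at 0.350, 0.359, 0.262 and 0.265. The shore before that island (chr15:39004076-39006075) was at 0.480 in NC and 0.440 in siDNMT1 uninduced cells and was not listed in OB cells. It covers most of the 2 kb before the gene start. The promoter level, whose transcription start is not given, may thus average other bases, and it lay close to that of the island inside the gene. The promoter, 5′ UTR and island can share cytosines and do not count as separate observations. In all 3 regions both OB libraries lay below both uninduced libraries. The Fzd6 exons, at 0.686, 0.709, 0.685 and 0.621, did not separate in this way in NC cells.

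Fzd1, a receptor of canonical signalling named here after its values were seen, had an unmethylated promoter, at 0.0215, 0.0205, 0.0169 and 0.0235. An island inside this short gene (chr5:4755939-4756186) was at 0.709, 0.693, 0.593 and 0.611. The shore beyond it (chr5:4753938-4755937), at the 3′ end of the gene, was at 0.689, 0.690, 0.454 and 0.515, differences with OB of -0.235 and -0.176. Both regions were lower in both OB libraries.

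**Figure D4:**
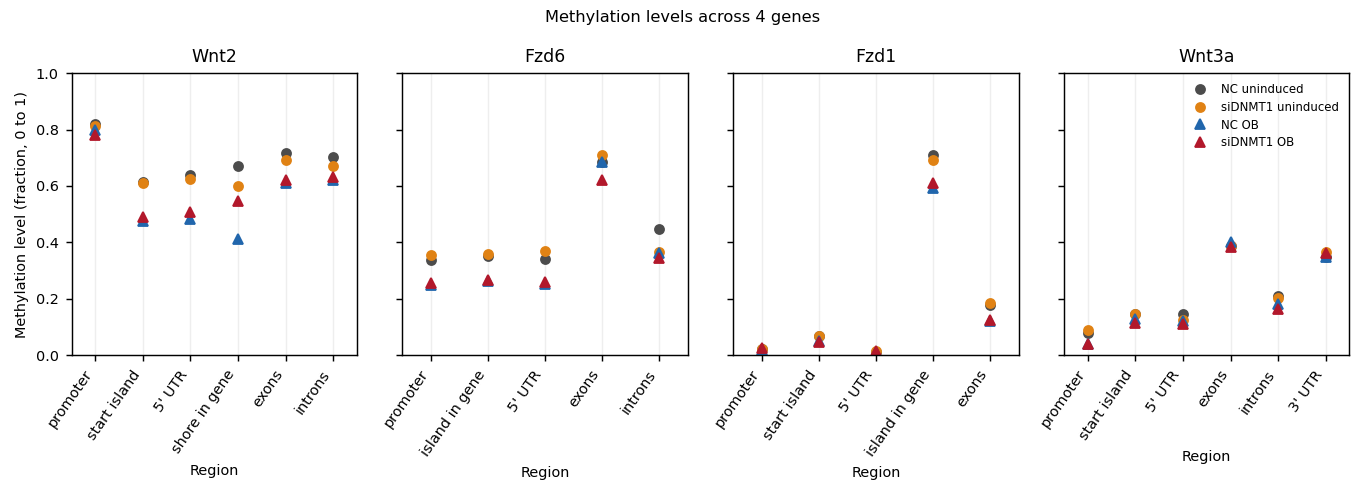
Methylation level (vertical axis, 0 to 1) of the regions of Wnt2, Fzd6, Fzd1 and Wnt3a in the 4 libraries, 1 point per library; circles are uninduced and triangles OB. At the Wnt2 start island and 5′ UTR, the Fzd6 promoter and the Fzd1 inner island the triangles lie below the circles (Fzd6 promoter 0.250 and 0.254 against 0.338 and 0.355), while the Wnt2 promoter stays near 0.8.

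The remaining changes past 0.1 with OB were each in a single comparison or went opposite ways. The 3′ UTR of Ctnnb1 rose in NC cells, at 0.467, 0.559, 0.608 and 0.525 over the 4 libraries. The exons of Wnt16 fell in NC cells (-0.240) and rose in siDNMT1 cells (0.162). In siDNMT1 cells the exons of Wnt2b fell by 0.133 and the 3′ UTR of Wnt7b by 0.161. There the 3′ UTR of Tcf7l1, a repressor among the Tcf proteins, fell by 0.144 and that of Lrp6 by 0.24. The introns of Dkk2 rose by 0.1, from 0.5 to 0.6. Wnt2b, Wnt7b, Tcf7l1 and Dkk2 are named here after their values were seen. The exons of Wnt2b (0.627, 0.624, 0.543 and 0.491) and the 3′ UTR of Wnt7b (0.368, 0.392, 0.305 and 0.231) were also lower with OB in NC cells.

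As deposited, most levels of the genes were lower in the OB libraries. The OB comparisons in NC and in siDNMT1 cells share no library. Of 183 levels 135 (73.8%) were lower with OB in both and 10 were higher in both, where 48.6% and 14.6% of all were. After each library was centred on its class median 82 were lower in both, where 22.1% of all were, and with the median difference subtracted 109, where 32.2% were. By at least 0.05 in both, 12 (6.56%) were lower and 0 higher, where 3.50% and 0.759% of all were. Of the 41 promoters, 29 (70.7%) were lower in both, where 50.4% of all were, and 13 were once each library was centred on its median, where 15.0% of all were. With the median difference subtracted 26 were, where 32.6% of all were. The promoter higher in both was that of Lef1, where 13.8% of all were. Those lower by at least 0.05 in both numbered 4, where 3.29% of all promoters were and 0.724% were higher by that much: Fzd6, Wnt5a, Sfrp1 and Dkk2. The shore just before the Wnt5a gene start differed with OB by only -0.0188 in NC and -0.0148 in siDNMT1 cells. Sfrp1, an antagonist that binds Wnt ligands, was at 0.172, 0.160, 0.116 and 0.0854, and Dkk2 at 0.664, 0.643, 0.603 and 0.570.

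The median promoter difference with OB depended on the scaling. In NC cells it was -0.00992, against -0.00320 over all promoters, with 33 of 41 lower where 63.4% of all were, but it was 0.00720 with 14 lower, where 24.9% of all were, after each library was centred on its median. Taking away the median difference of all promoters instead, an alternative chosen after seeing the data, gave -0.00672 with 30 lower, where 50.0% of all were. The shift also depended on level. Classes of mean level were under 0.1, 0.1 to 0.3, 0.3 to 0.5 and from 0.5. In NC cells the genes had medians of -0.00467, -0.00848, -0.0300 and -0.0151 in these classes. All promoters had -0.00198, -0.0157, -0.0105 and -0.00123, so the genes fell less from 0.1 to 0.3 and more in the other classes. In siDNMT1 cells the median promoter difference was -0.0290, against -0.00654 over all, with 36 of 41 lower where 73.1% were. There it stayed negative after centring (-0.00509, 21 lower, where 27.4% of all were) and with the median difference taken away (-0.0224, 34 lower, where 50.0% were). In the same classes of level the genes had medians of -0.00914, -0.0353, -0.0453 and -0.0333, against -0.00296, -0.0219, -0.0200 and -0.0148 over all. All 8 antagonist promoters were lower with OB in both NC and siDNMT1 cells as deposited, where 50.4% of all promoters were. After centring 3 of 8 were lower in both, where 15.0% of all were. With the median difference taken away all 8 were, where 32.6% of all were. In NC cells 4 of 6 effector promoters were higher with OB, where 63.4% of all promoters were lower. The largest rise among effectors was 0.0209 for Tcf7l1, but the largest among the 41 was that of Fzd9, from 0.614 to 0.653. In siDNMT1 cells the largest rise was that of Lef1, from 0.0248 to 0.0343. For Fzd9 the siDNMT1 uninduced library was the highest and the siDNMT1 OB library the lowest.

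CpG islands at the genes were mostly lower in the OB libraries, as deposited and after centring. Centring moved islands less than promoters, since the median over all islands differed with OB by -0.00383 in NC and -0.00533 in siDNMT1 cells and that over all promoters by -0.0171 and -0.0239. The genes held 66 islands with a level in all 4 libraries, in 44 genes, of which 35 lay across a gene start. Of the 66, 52 (78.8%) were lower with OB in both NC and siDNMT1 cells and 2 were higher in both, where 60.0% of all 14095 islands were lower and 8.66% higher in both. After centring on the median island 47 of 66 were lower in both, where 33.6% of all were. Of the 35 islands across a start 26 (74.3%) were lower in both and 0 higher, and 23 were lower after centring. As deposited, their median difference was -0.0131 in NC and -0.0175 in siDNMT1 cells, against -0.00313 and -0.00477 over all islands. Unlike promoters, islands were not compared within classes of level. Of the 35, 17 had a mean level under 0.1 and 8 at least 0.3, and of the 66, 22 and 21 did. How all islands spread over these levels is not given here. Past 0.1, 2 of the 66 fell with OB in NC cells (the Wnt2 start island and the Fzd1 inner island), where 0.858% of all did. In siDNMT1 cells 1 fell (Wnt2), where 1.00% did, and 0 rose in either, where 0.319% and 0.263% of all did.

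**Figure D5:**
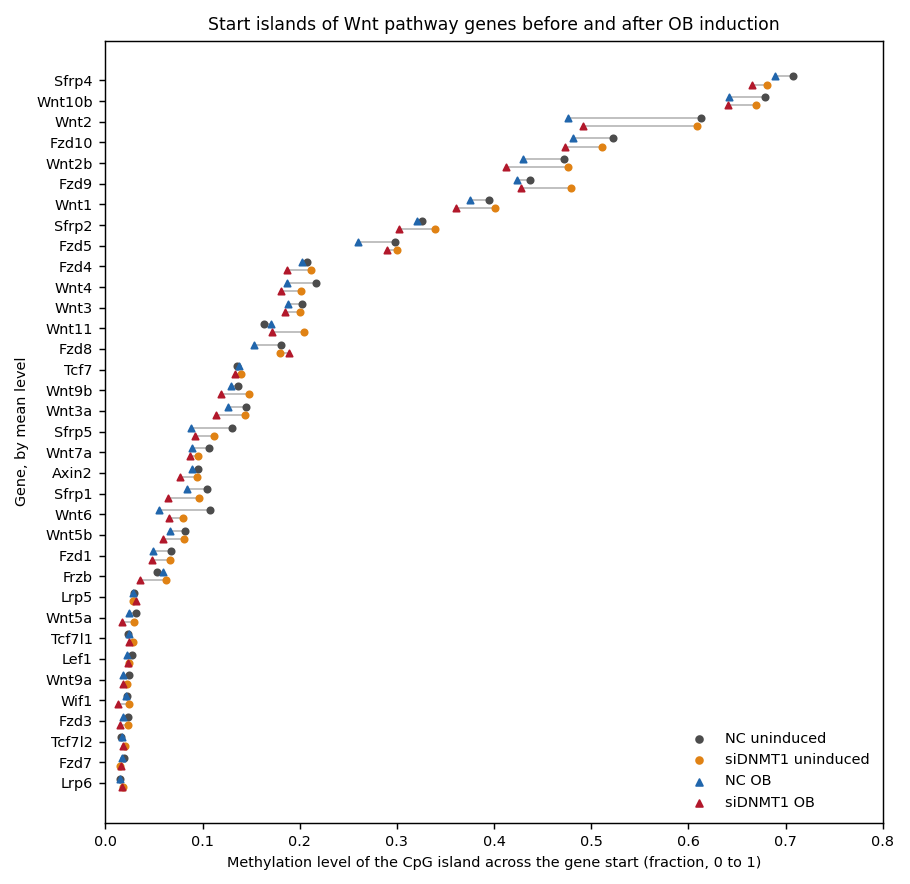
Methylation level (horizontal axis, fraction, cut at 0.8) of the 35 CpG islands across the start of a Wnt pathway gene, ordered by mean level. For each gene the upper line joins NC uninduced (grey circle) to NC OB (blue triangle) and the lower line siDNMT1 uninduced (orange) to siDNMT1 OB (red); 26 of 35 are lower with OB in both (23 after centring), and Wnt2 moves most.

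With siDNMT1, 26 of the 66 islands (39.4%) were lower in both uninduced and OB cells, where 29.4% of all islands were, and 28 were after centring, where 29.4% of all were. None of the 66 changed by 0.1 with siDNMT1 in uninduced cells, where 0.255% of all fell and 0.227% rose, or in OB cells, where 0.355% and 0.326% did. The start island of Wnt6 was at 0.108, 0.0803, 0.0551 and 0.0652, highest in NC uninduced cells. The count over island shores depended on scaling, as that over promoters did: 64 of 99 (64.6%) were lower with OB in both, where 51.7% of all shores were, and 24 after centring, where 16.5% were.

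The other pathway genes were a list of 53 that covers secretion of the ligands, R-spondins, the destruction complex and the planar polarity branch. They too had few changes past 0.1, which were rare over all genes. Of their 216 levels 0 passed 0.1 with siDNMT1 in uninduced cells, where 0.852% of all fell and 0.692% rose. In OB cells 1 fell, where 1.44% of all fell and 0.725% rose. That was the 5′ UTR of Daam2, listed at 0.145, 0.108, 0.142 and 0. With OB, 0 passed in NC cells, and in siDNMT1 cells 2 fell (the Daam2 5′ UTR and the exons of Ryk, a Wnt receptor, at 0.282, 0.318, 0.269 and 0.195) and 1 rose (the Daam2 promoter, at 0.432, 0.400, 0.438 and 0.518). Over all levels 1.33% fell and 0.815% rose with OB in NC cells, and 2.42% and 0.980% did in siDNMT1 cells. Daam2, a formin of the planar polarity branch, and Ryk were named after their values were seen. Of their 47 promoters 33 were lower with OB in NC and 33 in siDNMT1 cells, which is 70.2% in each, where 63.4% and 73.1% of all promoters were. Their medians were -0.00632 and -0.00729, against -0.00320 and -0.00654 over all.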

How the data were processed

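Methylation was read in 4 libraries of C3H10T1/2 cells, grouped by the sample labels. Per the labels, the authors used CASAVA, Trimmomatic (version 0.36) and Bismark (version 0.16.3) with mm10, and deposited the fraction of methylated CpG per region without read counts. The labels name RRBS, while the protocol describes sonicated DNA. The coverage minimum, the weighting of cytosines and the transcription start behind a promoter are not given in the sources used here.

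Members were matched by Ensembl identifier to GENCODE vM21. Levels were subtracted between libraries over regions listed in all 4, and a change was counted from 0.1. All 66 islands of the members start and end with CG on GRCm38. CpG in the 2 kb before each start was counted on that genome. No test was run, since each condition has 1 library. A fit of siRNA and induction as additive terms, which would take their interaction as error, was not made. The members, gene lists and thresholds were chosen with earlier results of these data known.

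Genes were named if a region changed by 0.1 with siDNMT1, or with OB in NC cells, if their promoter was lowest or highest in a role or moved most in a comparison, or if they were Wnt3a or a neighbouring ligand pair. Islands were given for named genes, and at most 4 promoters were printed. Genes outside the rule that are given with values are marked in the text. Alternatives covered the threshold, centring, region classes and a relative change. Scripts were tested on simulated data and used Python (3.11.15) with pysam (0.24.0), scipy (1.17.1), pandas (2.3.3), matplotlib (3.10.9) and numpy (2.4.6).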

Additional observations from a re-analysis of the deposited data

Results flagged for a closer look

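At 2 regions of the genes the siDNMT1 difference went opposite ways before and after OB induction, by at least 0.05 each way. At the Wnt16 exons it was -0.113 in uninduced and 0.290 in OB cells, a gap of 0.403. At the Ctnnb1 3′ UTR it was 0.0922 in uninduced and -0.0831 in OB cells, a gap of -0.175. With 1 library per condition the difference between these effects was not tested, and the depth behind the levels is unknown.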

How the results depend on the processing

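The number of changed levels out of 183 was 1, 2, 4 and 9 in the order siDNMT1 in uninduced cells, siDNMT1 in OB cells, OB in NC cells and OB in siDNMT1 cells. With a threshold of 0.05 it was 11, 11, 21 and 39. With 0.2 it was 0 in the first comparison, 1 in the third and 1 in the fourth. Counting a change from 0.2 of the larger level gave 4, 15, 18 and 28. Over promoters alone it was 0, 0, 0 and 1, and without the UTR levels 1 in the second, 2 in the third and 4 in the fourth. Centring each library on its class median gave 2 in the first. Of the other pathway genes, 4 and 14 levels passed 0.05 with siDNMT1 in uninduced and OB cells. For a single comparison, shares over all genes are given above only for changes of 0.1 as deposited. The counts at other settings therefore do not show whether these genes differ from the rest. The median promoter difference of the members turned from -0.000378 to 0.00291 (centred), 0.00149 (mean) and 0.000335 (median difference of all promoters subtracted, chosen after seeing the data) for siDNMT1 in uninduced cells. With centring it turned from -0.00992 to 0.00720 for OB in NC cells and moved from -0.0290 to -0.00509 for OB in siDNMT1 cells. Centring moves every region of a class by the same amount in a comparison, so whether a difference moved depends on class and comparison alone. Of 76 differences of named regions, 32 moved by more than the median absolute difference of their class. All 32 were promoter or exon differences with OB. Of the differences past 0.1, 0 turned. Smaller ones did turn, as that of the Dkk3 promoter with OB in NC cells, from -0.0138 to 0.00329. Centring takes away the difference between the medians of all promoters, which was -0.0171 for OB in NC and -0.0239 for OB in siDNMT1 cells. The Fzd6 promoter (OB in siDNMT1 cells) and the Wnt2 exons (OB in NC cells) no longer passed 0.1 when centred. No paired analysis was possible because the groups compared share fewer than 2 replicate numbers, and with 1 library per condition none could be left out. Depth is unknown, so the number of reads behind a level cannot be given. Simple fractions can arise from few reads. Such levels were listed at the Lrp6 3′ UTR (0.24, 0.24, 0.25 and 0), the Dkk2 introns (0.5 and 0.6 in siDNMT1 cells) and the Wnt16 exons (0.52 in NC OB).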
